A study of Mus musculus with 48 samples.

Results

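The 10 choroid plexus epithelium genes *Ttr*, *Sostdc1*, *Kl*, *Folr1*, *Aqp1*, *Slc4a5*, *Kcnj13*, *Kcne2*, *Clic6* and *Otx2* were taken by symbol through their Ensembl identifiers, and all 10 were found among the 52636 genes of the deposited table. They were measured by RNA-sequencing in punches of the right amygdala from female mice of 8–11 weeks, with 48 libraries in 6 groups of 8. WT mice with both alleles of *Brd1*, and heterozygous *Brd1*+/- mice which carry a targeted deletion in 1 allele (strain label C57BL/6NTac-Brd1, a single targeted line), received saline as vehicle, 10 mg/kg of the tricyclic antidepressant imipramine (IMN) or 5 mg/kg of the selective serotonin reuptake inhibitor fluoxetine (FLX). The groups were thus WT vehicle, *Brd1*+/- vehicle, WT IMN, *Brd1*+/- IMN, WT FLX and *Brd1*+/- FLX. All mice, vehicle groups included, were injected on 2 days and went through tail suspension, open field and forced swim tests, so no group holds untested animals.

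The choroid plexus is a frond of capillaries and connective tissue covered by an epithelium, and it hangs in the ventricles of the brain. The epithelial cells are sealed by tight junctions and secrete cerebrospinal fluid by moving ions and water from blood to ventricle, while also releasing carrier proteins and taking up vitamins such as folate. The amygdala itself holds no choroid plexus, but the inferior horn of the lateral ventricle, which does, runs beside it. In bulk tissue, fewer cells of a type and less RNA per cell cannot be told apart.

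Levels were deposited as TPM, a unit that divides each gene's reads by transcript length and scales every library to nearly the same sum. They are therefore per length and may be compared between genes, but the sequencing depth of a library is unknown and no counting interval can be attached to a value. A value of 0 is reported as listed at 0, since no detection limit is known. Between 23420 and 27252 genes were listed above 0 per library, and no pair of libraries was identical (highest Pearson *r* across genes 0.978, median 0.965). The targeted gene *Brd1* averaged 35.6, 36.9 and 32.9 TPM in WT vehicle, IMN and FLX mice and 26.0, 23.4 and 23.5 TPM in the corresponding *Brd1*+/- groups. The punches also varied in region: the summed level of 7 genes of striatal projection neurons ranged from 130 to 7996 TPM and that of 5 amygdala genes from 27.8 to 298 TPM.

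*Ttr* (transthyretin, the carrier of thyroid hormone and, with retinol-binding protein, of retinol; GRCm38 chromosome 18, 20665280 to 20674321, plus strand) varied widely within every group. It ranged from listed at 0 in 3 libraries to 28369 TPM, with a median of 9.03 TPM over the 48 libraries. In WT vehicle mice the lowest, median and highest libraries had 4.22, 8.64 and 28369 TPM, and in *Brd1*+/- vehicle mice 3.12, 105 and 10275 TPM. Each of these groups therefore held both libraries with hardly any *Ttr* and at least 1 library in which it was among the abundant transcripts. In WT IMN mice the lowest, median and highest values were 0, 3.40 and 1193 TPM, and in *Brd1*+/- IMN mice 0, 8.99 and 3311 TPM. With FLX they were 1.85, 6.42 and 8383 TPM in WT mice and 0.947, 55.5 and 27594 TPM in *Brd1*+/- mice. The ranges of all 6 groups overlapped.

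**Figure D1:**
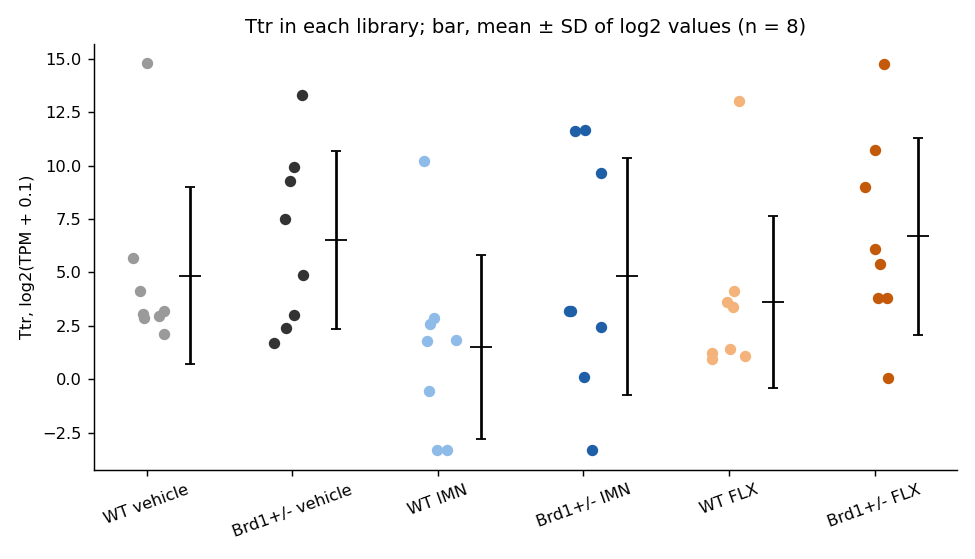
*Ttr* in each of the 48 libraries, on a log2(TPM + 0.1) scale; each point is a library and the bar beside each group is the mean ± SD of its 8 log2 values. Every group holds low libraries and at least 1 library above 10 on this scale, and the SD of a group lies between 4.02 and 5.56.

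The highest values were spread over genotypes and treatments. In descending order they were 28369 TPM in WT vehicle replicate 1, 27594 TPM in *Brd1*+/- FLX replicate 8, 10275 TPM in *Brd1*+/- vehicle replicate 3 and 8383 TPM in WT FLX replicate 2. The next were 3311 and 3165 TPM in *Brd1*+/- IMN replicates 3 and 4. Sorted by *Ttr*, from the highest library down to 0.586 TPM in WT IMN replicate 4, each had at most 2.82 times the value of the next lower one, and no gap split these libraries into clusters. Below 0.586 TPM lay only the 3 libraries listed at 0, a step of 2.78 on the log2(TPM + 0.1) scale whose size depends on the pseudocount. At a level of 100 TPM, chosen after the values were seen, 10 of 24 *Brd1*+/- and 3 of 24 WT libraries lay above it. These counts depend on the level chosen, and the highest libraries named above came from both genotypes.

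The 10 genes together made up 30019 TPM, 3.00% of the summed TPM, in WT vehicle replicate 1 and 29397 TPM (2.94%) in *Brd1*+/- FLX replicate 8. At the other end, WT IMN replicate 4 had a sum of 10.6 TPM, and the median over the 48 libraries was 26.8 TPM. Because TPM is a share, transcripts that take 3.00% of a library lower the values of all other genes in it by about as much.

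**Figure D2:**
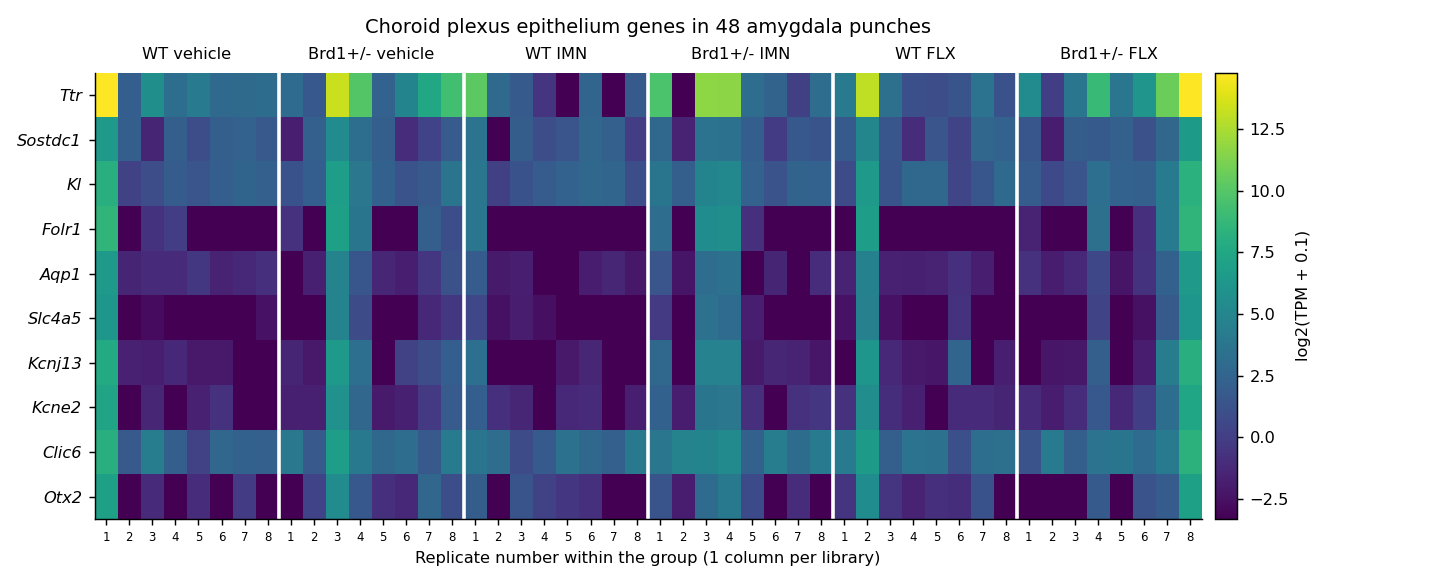
The 10 genes (rows) in each of the 48 libraries (columns, by group and replicate number), coloured by log2(TPM + 0.1). Columns such as WT vehicle 1, *Brd1*+/- vehicle 3, WT FLX 2 and *Brd1*+/- FLX 8 are high in all 10 rows, while *Kl*, *Clic6* and *Sostdc1* keep a level in most of the other columns.

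Of the secreted proteins, *Sostdc1* (an antagonist of BMP and Wnt signalling; chromosome 12, 36314139 to 36318452, plus strand) and *Kl* (klotho, the co-receptor of FGF23 that is also shed as a soluble protein; chromosome 5, 150952607 to 150993817, plus strand) had a level in nearly every punch. *Kl* was above 0 in all 48 libraries, with a lowest value of 0.966, a median of 4.72 and a highest of 306 TPM. Its group medians lay between 3.95 TPM (WT vehicle) and 5.24 TPM (*Brd1*+/- IMN). *Sostdc1* was listed at 0 in 1 library and had a median of 3.75 and a highest value of 95.5 TPM, with group medians between 3.10 TPM (WT FLX) and 4.37 TPM (WT vehicle). The medians of both genes thus varied little between groups, and the high values came from the libraries with high *Ttr*. Single libraries varied more, with *Sostdc1* below 1 TPM in 9 of the 48 libraries and *Kl* in 1.

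*Folr1* (folate receptor alpha, which carries folate across this epithelium; chromosome 7, 101858331 to 101870788, minus strand) behaved differently from *Kl* and *Sostdc1*. It was listed at 0 in 29 of 48 libraries and reached 370 TPM in WT vehicle replicate 1 and 367 TPM in *Brd1*+/- FLX replicate 8. In WT IMN and WT FLX mice 7 of 8 libraries were listed at 0, and the remaining library had 13.96 TPM with IMN and 106 TPM with FLX. The medians were 0 TPM in the 3 WT groups, and 1.25, 0.239 and 0.351 TPM in *Brd1*+/- vehicle, IMN and FLX mice. *Folr1* overlaps *Anapc15*, which lies on the other strand. Whether counting used the strand is not stated, but *Anapc15* stayed between 10.7 and 28.2 TPM and had an *r* of −0.17 with *Folr1*.

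The genes of water and ion transport followed the same libraries. *Aqp1* (the water channel of the apical membrane; chromosome 6, 55336432 to 55348555, plus strand) had a median of 0.284 TPM and reached 84.6 TPM in *Brd1*+/- FLX replicate 8 and 84.3 TPM in WT vehicle replicate 1. *Slc4a5* (a sodium bicarbonate cotransporter; chromosome 6, 83219828 to 83304945, plus strand) was listed at 0 in 25 libraries and reached 74.0 TPM. *Kcnj13* (the inward rectifier potassium channel Kir7.1; chromosome 1, 87386363 to 87394729, minus strand) was listed at 0 in 13 libraries and reached 269 TPM. For these genes the highest values again fell in the libraries highest in *Ttr*. WT FLX replicate 6 was an exception, with 5.82 TPM of *Kcnj13* and 0.529 TPM of *Slc4a5* at a *Ttr* of 2.56 TPM. *Kcnj13* lies within *Gigyf2* on the other strand, which ranged from 32.2 to 84.8 TPM.

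*Kcne2* (a potassium channel beta subunit that pairs with KCNQ channels; chromosome 16, 92292389 to 92298129, plus strand) was listed at 0 in 8 libraries, with a median of 0.361 and a highest value of 165 TPM. *Clic6* (a member of the chloride intracellular channel family; chromosome 16, 92485736 to 92541243, plus strand) lies nearby on the same chromosome but behaved differently. It was above 0 in all 48 libraries, from 1.09 to 320 TPM, and its median of 10.6 TPM was the highest of the 10 genes, above that of *Ttr*. Its 3 lowest group medians were 4.73 TPM (WT vehicle), 7.68 TPM (WT IMN) and 10.8 TPM (WT FLX), and the *Brd1*+/- medians were 12.1 TPM with vehicle, 18.8 TPM with IMN and 12.5 TPM with FLX. Part of *Clic6* is shared with the overlapping transcript *2410124H12Rik* on the same strand, so the division of reads between them is uncertain.

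*Otx2* (a homeodomain transcription factor required for the choroid plexus to form and kept on in its epithelium; chromosome 14, 48657677 to 48673819, minus strand) was listed at 0 in 15 libraries, had a median of 0.465 TPM and reached 123.7 TPM in WT vehicle replicate 1. It was above its usual relation to *Ttr* in *Brd1*+/- vehicle replicate 7, with 6.19 TPM at a *Ttr* of 180 TPM, and in WT IMN replicate 3, with 2.52 TPM at a *Ttr* of 3.37 TPM. *Otx2* overlaps *Otx2os1* on the other strand and *Gm49154* on its own strand.

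Promoter windows were read because the genes move together and OTX2 is the transcription factor among them. RefSeq windows of 300 bases (250 before to 50 after a transcript start, GRCm38.p6) were at hand for *Kcnj13*, *Kl*, *Aqp1*, *Slc4a5*, *Otx2* and *Kcne2*, with 10 windows in all. The core motif bound by OTX proteins, TAATCC, searched on both strands, was found in 1 window, which belongs to *Otx2* itself, and in 7.06% of the 32851 windows of all genes. The TATA box letters TATAAA, which were looked for only after the data had been seen, were found on either strand in 3 of the 10 windows (*Kcnj13*, *Slc4a5* and another window of *Otx2*), and in 13.6% of all windows. The motifs do not overlap each other. Counted from the transcript start, TAATCC of the *Otx2* window begins at −211 on the opposite strand. TATAAA of *Kcnj13* begins at −29 on the strand of the gene and that of *Slc4a5* at −127 on the opposite strand. The *Otx2* window is shown for TAATCC, and 1 window each of *Kcnj13* and *Slc4a5* for TATAAA, 5′ to 3′ on the strand of the gene, with the motif, or its reverse complement, in capitals. They are *Otx2* at chr14:48665060-48665359 (minus strand), *Kcnj13* at chr1:87394680-87394979 (minus strand) and *Slc4a5* at chr6:83237125-83237424 (plus strand). The *Otx2* window with TATAAA, at chr14:48667595-48667894, is not shown. By the gene coordinates given above, the *Otx2* and *Slc4a5* windows lie inside their genes and not at the outermost start. Which start was used in these libraries is not known.
Otx2: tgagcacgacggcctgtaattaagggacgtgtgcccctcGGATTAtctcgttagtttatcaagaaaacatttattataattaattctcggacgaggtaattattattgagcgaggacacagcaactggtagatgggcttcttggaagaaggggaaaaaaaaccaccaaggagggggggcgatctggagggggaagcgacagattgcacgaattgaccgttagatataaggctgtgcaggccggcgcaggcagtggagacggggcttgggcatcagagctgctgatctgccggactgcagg
Kcnj13: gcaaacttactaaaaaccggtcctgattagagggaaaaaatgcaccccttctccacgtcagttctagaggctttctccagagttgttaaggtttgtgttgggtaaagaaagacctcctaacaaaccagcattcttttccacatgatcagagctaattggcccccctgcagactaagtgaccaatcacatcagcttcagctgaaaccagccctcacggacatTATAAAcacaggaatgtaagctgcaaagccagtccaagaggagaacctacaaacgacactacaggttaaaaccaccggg
Slc4a5: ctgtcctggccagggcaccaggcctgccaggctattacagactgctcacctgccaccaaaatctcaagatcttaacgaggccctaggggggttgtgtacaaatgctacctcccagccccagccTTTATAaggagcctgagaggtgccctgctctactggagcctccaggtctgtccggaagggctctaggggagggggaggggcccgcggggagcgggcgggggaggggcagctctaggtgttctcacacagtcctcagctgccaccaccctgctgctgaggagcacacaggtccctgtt
A match to letters is a description and does not show binding.

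Whether the genes rose and fell together from punch to punch was asked with *Ttr* as reference, over 48 libraries on the log2(TPM + 0.1) scale. Pearson's *r* (and Spearman's rho) with *Ttr* was 0.92 (0.83) for *Folr1*, 0.91 (0.80) for *Aqp1*, 0.89 (0.77) for *Kcne2*, 0.88 (0.72) for *Slc4a5* and 0.87 (0.66) for *Kcnj13*. It was 0.78 (0.62) for *Otx2*, 0.76 (0.47) for *Kl*, 0.64 (0.52) for *Sostdc1* and 0.62 (0.43) for *Clic6*. All 9 correlations passed a permutation test, each with *p* = 1e-05 for *r*, the smallest value that 100000 permutations can give, which stayed at 1e-05 after Benjamini-Hochberg adjustment over the 9 pairs. For rho the largest of the 9 permutation *p*-values was 0.00234, for *Clic6*, and its adjusted value was the same. Without the 2 libraries farthest from the median of *Ttr*, *r* lay between 0.48 (*Clic6*) and 0.89 (*Folr1* and *Aqp1*), and rho between 0.35 and 0.80. Within the 16 vehicle and the 32 drug libraries, whose sample codes came from separate ranges, *r* lay between 0.59 and 0.96 and between 0.56 and 0.91. Spearman's rho lay between 0.39 and 0.86 in the drug libraries, where all 9 passed, but between 0.14 and 0.85 in the vehicle libraries, where 7 of 9 passed. The exceptions were *Sostdc1* (rho 0.14, adjusted permutation *p* = 0.593) and *Kl* (rho 0.45, adjusted permutation *p* = 0.0944). Over the 45 pairs among the 10 genes *r* ran from 0.43 (*Clic6* and *Sostdc1*) to 0.95 (*Folr1* and *Slc4a5*), with a median of 0.83.

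**Figure D3:**
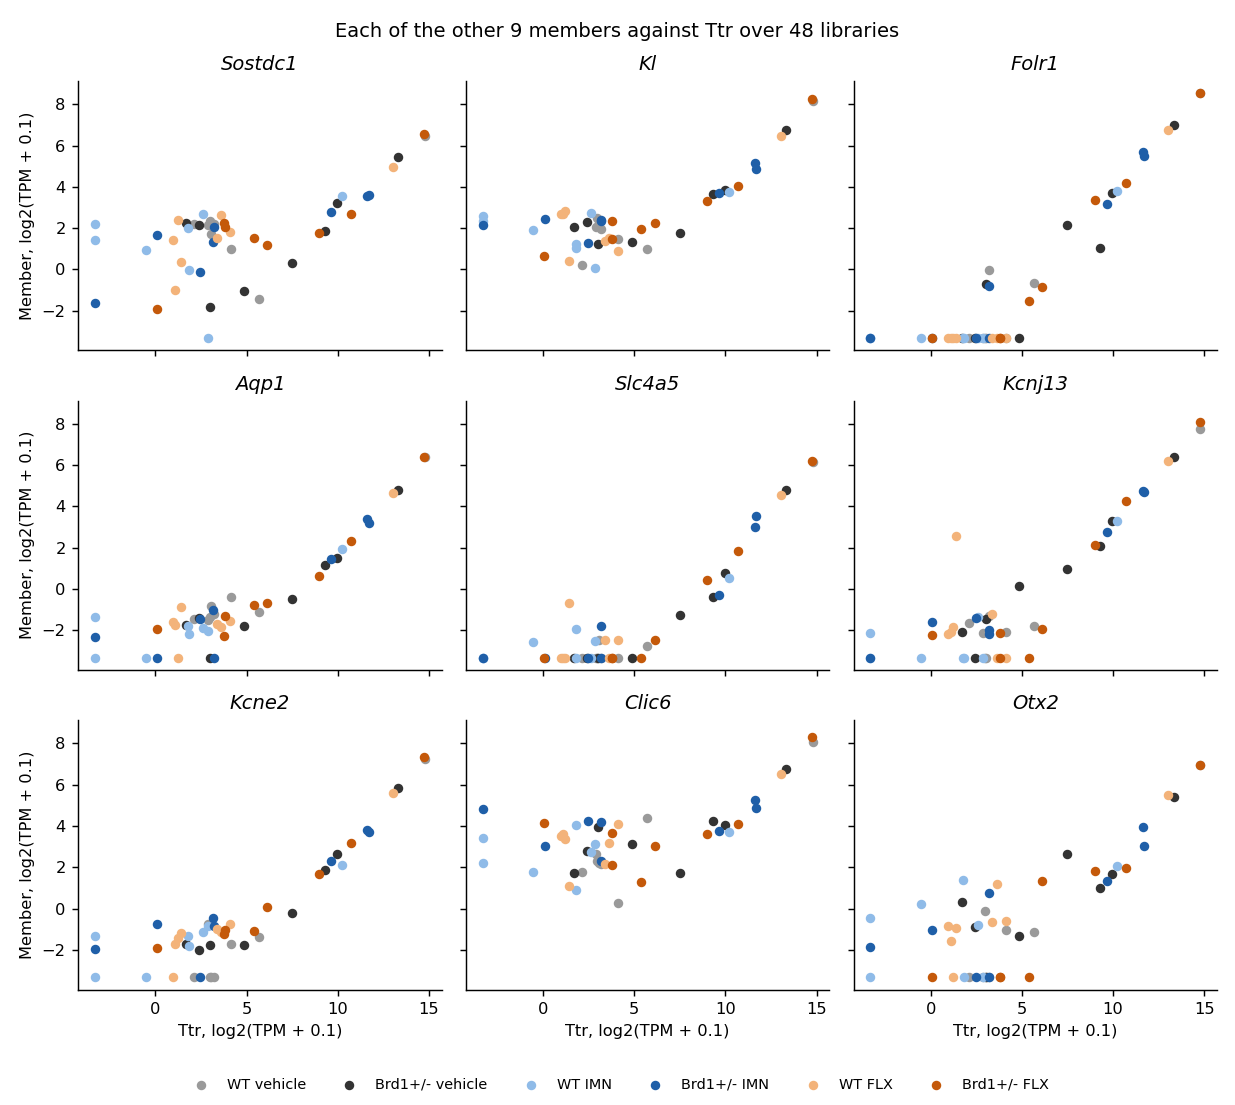
Each of the other 9 genes (vertical axis, log2(TPM + 0.1)) against *Ttr* (horizontal axis, same scale), 1 point per library, coloured by group. At high *Ttr* the points of every panel lie along a rising line. At low *Ttr* they flatten at the floor for *Folr1* and *Slc4a5* and above it for *Clic6* and *Kl*. Most points of *Sostdc1* also lie above the floor there, but some lie near it.

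In the libraries highest in *Ttr* the proportions of the genes to it varied little, and they varied more as libraries with less *Ttr* were counted in. In the 4 libraries with the highest *Ttr* (8383 to 28369 TPM, from 4 groups), *Folr1* was 1.25 to 1.33% of *Ttr*, *Clic6* 0.950 to 1.16%, *Kl* 0.990 to 1.11% and *Kcnj13* 0.750 to 0.973%. *Kcne2* was 0.529 to 0.598%, *Otx2* 0.417 to 0.546%, *Sostdc1* 0.309 to 0.421%, *Aqp1* 0.267 to 0.307% and *Slc4a5* 0.252 to 0.2797%. The proportion of a gene thus differed by at most 1.36-fold among these libraries while *Ttr* itself differed more, and the 4 libraries gave the same order of genes except that *Kl* and *Clic6* changed places in WT vehicle replicate 1 and *Otx2* and *Sostdc1* in *Brd1*+/- vehicle replicate 3. Over the 6 highest libraries (3165 TPM and above) the proportion differed 2.26-fold for *Otx2*, 1.52-fold for *Kcne2* and at most 1.39-fold for the other 7 genes. Over the 12 highest (507 TPM and above) it differed 6.45-fold for *Folr1* and 3.81-fold for *Slc4a5*, against 1.26-fold for *Aqp1*. These libraries were picked for their *Ttr*, so the proportions are a description and were not tested.

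A straight line of TPM on *Ttr* over all 48 libraries separated the genes into those with and those without a level of their own. Its intercept, the level at no *Ttr*, was 8.03 TPM for *Clic6*, 3.28 TPM for *Kl* and 2.95 TPM for *Sostdc1*. For *Otx2*, *Kcnj13*, *Aqp1*, *Slc4a5*, *Kcne2* and *Folr1* it lay between −0.14 and 0.335 TPM. The slope was steepest for *Folr1*, at 13.1 TPM per 1000 TPM of *Ttr*, and flattest for *Slc4a5*, at 2.61 TPM. Such lines rest on the few highest libraries, and without the 4 highest the intercepts of *Clic6*, *Kl* and *Sostdc1* were 8.89, 3.78 and 2.86 TPM. An intercept is a mean level, and *Sostdc1* was below 1 TPM in 9 of the 48 libraries.

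Markers of neighbouring tissues were set beside *Ttr* to describe what else varied with it. The mean of 25 further choroid plexus genes had an *r* of 0.86 and a rho of 0.61 with *Ttr* (permutation *p* = 1e-05 and 4e-05, adjusted over 13 lists 4.33e-05 and 0.000173). Of the 25, 22 had an *r* with *Ttr* above 0.5 and none was below 0, with a median of 0.74. Among them were the tight junction gene *Cldn2* (listed at 0 in 11 libraries, highest 118 TPM, *r* = 0.86), *Enpp2* (autotaxin, 37.99 to 5367 TPM, *r* = 0.70) and *Calml4* (highest 166 TPM, *r* = 0.88). The lowest were *Slc22a8* (*r* = 0.16) and *Htr2c* (*r* = 0.39), of which the former, an organic anion transporter, is also made by brain endothelium and the latter, a serotonin receptor, by neurons.

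Genes of ependymal cells, the ciliated lining of the ventricles, also rose with *Ttr*. The mean of their 12 genes had an *r* of 0.78 and a rho of 0.57 with *Ttr* (the same permutation and adjusted *p*-values), and 11 of 12 genes had an *r* above 0.5. *Foxj1*, the regulator of motile cilia, ran from 2.24 to 81.8 TPM and was at 0 in no library, whereas *Tmem212* and *Dynlrb2* were listed at 0 in 38 and 35 libraries. The summed level of the 12 genes ranged from 7.6 to 503 TPM in WT vehicle, 10.6 to 234 TPM in *Brd1*+/- vehicle, 6.5 to 30.4 TPM in WT IMN, 5.8 to 188 TPM in *Brd1*+/- IMN, 19.5 to 107 TPM in WT FLX and 9.7 to 392.8 TPM in *Brd1*+/- FLX mice. The part of ciliated cells in the values of the choroid plexus genes was not tested.

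The mean of the 10 meningeal fibroblast genes had an *r* of 0.50 (rho 0.32, permutation *p* = 0.00033 and 0.0265, adjusted 0.00107 and 0.0861), so it passed for *r* alone. *Igf2* led it (7.62 to 474 TPM, *r* = 0.74), a growth factor that meninges and choroid plexus both make. The red blood cell list had an *r* of 0.40 (rho 0.22, permutation *p* = 0.00478 and 0.141, adjusted 0.0124 and 0.262), and also passed for *r* alone. The list of 4 dentate gyrus genes reached 0.64 (rho 0.60, adjusted permutation *p* = 4.33e-05 and 0.00013). Its genes were *Dsp* (*r* = 0.79), a desmosome gene of epithelia too, *C1ql2* (0.33), *Prox1* (0.22) and *Calb1* (−0.08). Within the 16 vehicle libraries 5 lists passed for *r* and 0 for rho, and within the drug libraries 3 passed for either. The remaining 8 lists did not pass over the 48 libraries: *r* lay between −0.23 (microglia) and 0.25 (astrocytes), with −0.03 for endothelium and −0.22 for striatal neurons.

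**Figure D4:**
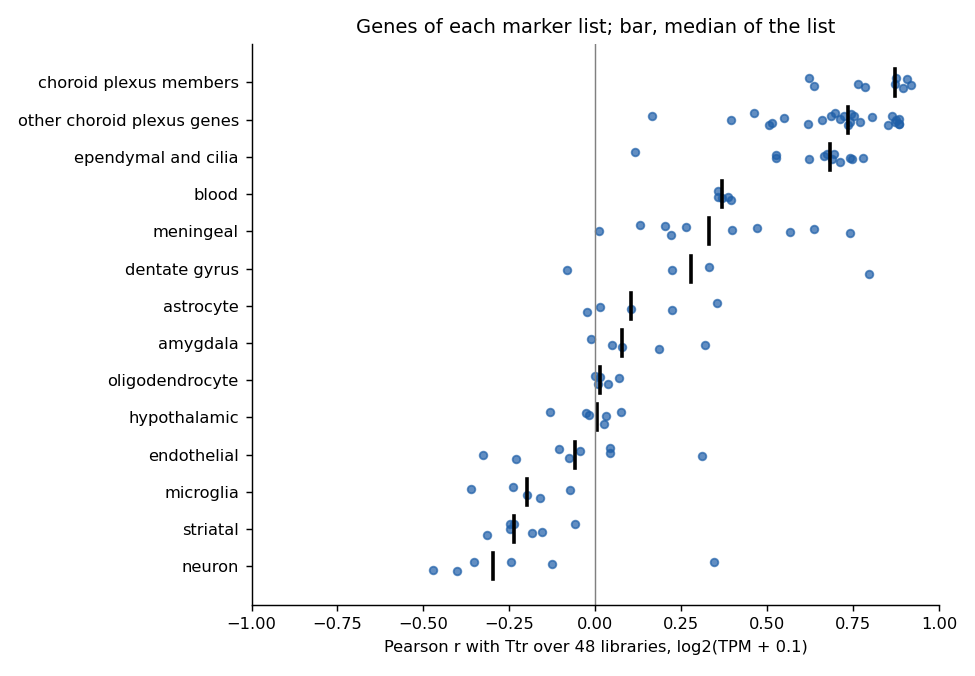
Pearson's *r* with *Ttr* over 48 libraries for every gene of 14 marker lists (points), with the median of each list (bars). The choroid plexus lists and the ependymal list lie to the right, with medians of 0.87, 0.74 and 0.68, and the endothelial, microglial, striatal and neuronal medians lie below 0.

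Genes most like the 10 in pattern were sought among 22468 genes by their *r*, over 48 libraries, with the mean of the standardised log2 values of the 10. The closest were *F5* (coagulation factor V, *r* = 0.98), *Tmem72* (0.97), *Krt8-ps* (0.97), *Prr32* (0.97), *Wfdc2* (0.95), *Steap1* (0.95), *Mfrp* (0.95), *Col8a2* (0.95), *Cldn2* (0.95) and *Krt8* (0.95). *Krt8-ps* is a processed copy of the keratin gene *Krt8*, so the split of reads between the pair is uncertain. Of these 10, *Prr32*, *Wfdc2*, *Krt8* and *Krt8-ps* were listed at 0 in 32, 36, 37 and 34 libraries, and *F5* was above 0 in all 48 with a median of 0.286 and a highest value of 94.7 TPM. In all, 134 genes had an *r* above 0.8 and 41 above 0.9.

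Several of the nearest protein-coding genes on the chromosome stayed at a steady level. *B4galt6*, 10277 bases to the right of *Ttr*, stayed between 45.9 and 90.1 TPM (*r* with *Ttr* 0.12). *Rcan1*, 14868 bases to the left of *Clic6*, stayed between 35.9 and 67.8 TPM (*r* with *Clic6* 0.33). *Dctn1*, to the left of *Slc4a5*, stayed between 197 and 322 TPM (*r* with *Slc4a5* −0.31). *Exoc5*, to the right of *Otx2*, stayed between 34.0 and 69.5 TPM (*r* with *Otx2* 0.07). *Dsg2*, a desmosome cadherin 60758 bases to the left of *Ttr*, ran from 0.0562 to 12.98 TPM with an *r* of 0.63. *Mindy4*, to the left of *Aqp1*, had the same *r* with *Aqp1* at 2.14 to 7.84 TPM. *Mrps6*, to the left of *Kcne2*, had an *r* of 0.57 with it at 34.0 to 109.5 TPM. *Stard13*, to the right of *Kl*, had an *r* of 0.53 with *Kl* at 2.72 to 29.7 TPM. For *Smim11*, to the right of *Kcne2*, and *Tmem260*, to the left of *Otx2*, *r* with the member was 0.40. *Mthfd2*, 745 bases to the right of *Slc4a5*, ran from 7.64 to 31.4 TPM (*r* with *Slc4a5* 0.07). *Folr2*, 1136 bases to the left of *Folr1*, ran from 0 to 5.22 TPM with a median of 0 (*r* with *Folr1* 0.37).

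The genotypes were compared within each treatment to ask whether reduced *Brd1* expression altered these genes. In the drug groups genotype and sample code partly coincided, since the highest codes were all WT. None of the 10 was called in any of the 3 comparisons with limma at a Benjamini-Hochberg adjusted *p* under 0.05 over all genes. In vehicle mice 0 of the 9 genes that passed the filter on low values were called, against 0.708% of the 24279 genes tested. In IMN mice it was 0 of 8 against 0.017%, and in FLX mice 0 of 8 against 1.54%. *Slc4a5*, and in drug mice *Folr1*, reached 0.1 TPM in fewer than 8 of the 16 libraries and were not tested. At an unadjusted *p* under 0.05 the counts were 0, 1 and 0, where 8.52%, 3.58% and 16.6% of all genes passed. These counts moved with single libraries: without WT vehicle replicate 1 the first was 3 of 8, without WT IMN replicate 1 the second was 5 of 8 and without *Brd1*+/- IMN replicate 6 it was 3 of 8. The third was 1 of 8 without WT FLX replicate 2, and 1 without *Brd1*+/- FLX replicate 2.

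The estimates lay mostly above 0 with wide intervals. For *Ttr* the difference of *Brd1*+/- from WT was 1.66 ± 1.91 on the log2 scale with vehicle, 3.30 ± 2.29 with IMN and 3.10 ± 1.98 with FLX (SE, limma adjusted *p* = 0.891, 0.9996 and 0.464). Exact permutation tests of *Ttr* over the 12870 arrangements of 8 against 8 libraries gave two-sided *p* = 0.442, 0.200 and 0.172 (adjusted over 7 comparisons 0.581, 0.468 and 0.468). The 95% confidence interval of the vehicle difference ran from −2.39 to 5.70, so differences of several-fold in either direction could not be resolved with 8 mice a group. The median difference over the 10 genes was 1.15, 1.35 and 0.85 with vehicle, IMN and FLX, beside 0.03, 0.01 and −0.06 over all genes tested. These medians moved with single libraries: without *Brd1*+/- vehicle replicate 3 the first was 0.34, without WT vehicle replicate 1 it was 2.39, and without *Brd1*+/- FLX replicate 8 the third was −0.10.

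The gene with an unadjusted *p* under 0.05 was *Clic6* in IMN mice. Its lowest, median and highest libraries had 1.77, 7.68 and 16.2 TPM in WT IMN and 4.86, 18.8 and 38.1 TPM in *Brd1*+/- IMN mice, so the groups overlapped. The log2 difference was 1.32 ± 0.47 (SE, limma unadjusted *p* = 0.0129, adjusted *p* = 0.9996). Of the 25 further choroid plexus genes, 22 to 23 were tested in each of the 3 comparisons and 0 were called, with 0, 2 and 0 at an unadjusted *p* under 0.05, the 2 being *Slc13a4* (log2 1.75) and *Calml4* (log2 2.69) in IMN mice.

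A fit of the genotype over all 48 libraries, with treatment as a covariate, was added after the data had been seen. All 10 genes were tested and 0 were called, against 0.0215% of 27944 genes, and 3 of 10 had an unadjusted *p* under 0.05, where 8.55% of all genes did. They were *Ttr* (log2 difference of *Brd1*+/- from WT 2.69 ± 1.24, unadjusted *p* = 0.0349, adjusted *p* = 0.543), *Folr1* (2.16 ± 1.04, unadjusted *p* = 0.0433) and *Kcne2* (1.60 ± 0.77, unadjusted *p* = 0.0442), all by limma with SE. Here the filter asked for 0.1 TPM in 8 of 48 libraries, so *Folr1* and *Slc4a5*, listed at 0 in 29 and 25, were tested. With vehicle, IMN and FLX, *Folr1* was listed at 0 in 5, 7 and 7 of 8 WT libraries. In *Brd1*+/- mice it was 3, 4 and 3 of 8. Its difference thus rests in part on how many libraries were listed at 0. The count of 3 rested on single libraries: it was 0 in each of 7 fits without 1 library, *Brd1*+/- vehicle replicate 3 among them, and 6 without WT vehicle replicate 1. A permutation test of *Ttr* within treatments gave *p* = 0.0401. Of the 25 further choroid plexus genes, all tested, 0 were called and 2 had an unadjusted *p* under 0.05, *Calml4* (log2 1.92) and *Car12* (carbonic anhydrase 12, log2 1.00). All 10 estimates were above 0, with *Sostdc1* lowest at 0.06, and their median was 0.95, but the 10 vary together across punches and are not 10 independent results. The ependymal and meningeal lists vary with them too (*r* with *Ttr* 0.78 and 0.50), and their part in these differences was not tested.

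The antidepressants were compared with vehicle within each genotype to ask whether these genes differed. Vehicle and drug libraries had sample codes from separate ranges, so drug and code range cannot be told apart in these comparisons. In WT mice 0 of 8 tested genes were called with IMN, where 0% of 23644 genes were, and 0 of 8 with FLX against 0.335%. In *Brd1*+/- mice 0 of 10 were called with IMN against 0.776%, and 0 of 9 with FLX against 0.731%. None had an unadjusted *p* under 0.05 in these 4 comparisons, where 4.58% (IMN) and 16.8% (FLX) of all genes in WT mice and 9.3% (IMN) and 6.94% (FLX) in *Brd1*+/- mice did, but without WT IMN replicate 1 it was 2 of 8 for IMN in WT mice. For *Ttr* the drug minus vehicle difference was −3.34 (IMN) and −1.25 (FLX) in WT mice and −1.69 (IMN) and 0.19 (FLX) in *Brd1*+/- mice on the log2 scale, with two-sided exact permutation *p* = 0.140, 0.498, 0.496 and 0.929. Of the 25 further choroid plexus genes 21 to 25 were tested in each and 0 were called, and 1 had an unadjusted *p* under 0.05, *Slc22a8* with IMN in *Brd1*+/- mice (log2 −0.44, limma adjusted *p* = 0.398). Both drugs share the vehicle libraries of a genotype, and the median over the 10 genes in WT IMN mice, −0.70, became 0.23 without WT vehicle replicate 1.

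**Figure D5:**
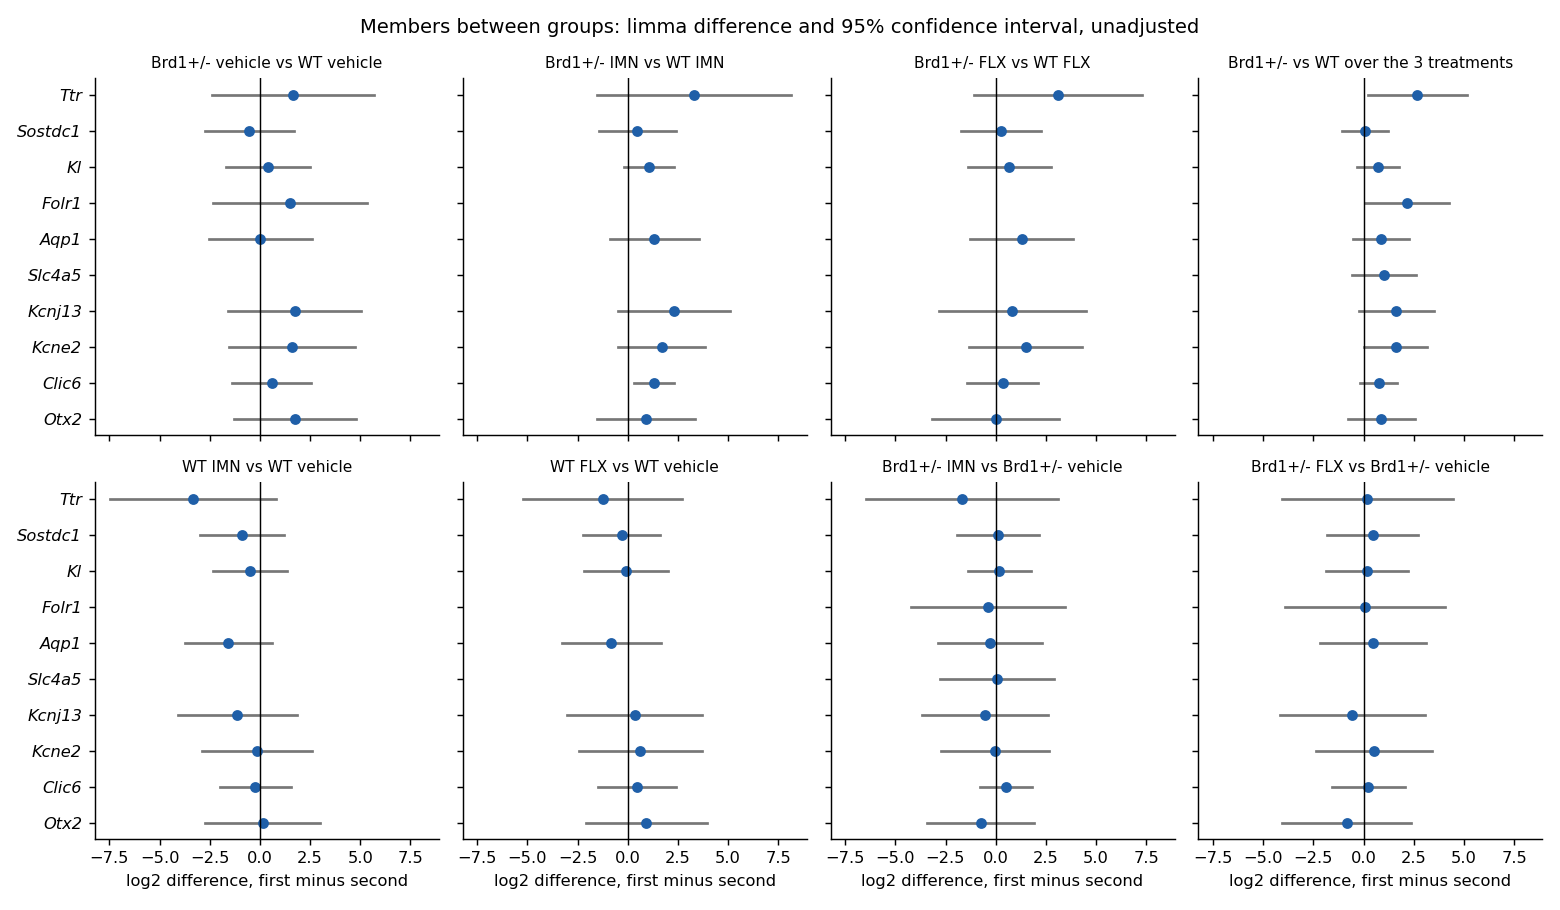
The limma log2 difference (points) and its unadjusted 95% confidence interval (lines) for each gene that passed the filter, in the 3 genotype comparisons, the genotype fit over the 3 treatments and the 4 drug comparisons. Intervals that lie to 1 side of 0 are those of *Clic6* in IMN mice and of *Ttr*, *Folr1* and *Kcne2* over the 3 treatments.

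Interactions of drug and genotype were fitted on both genotypes with the drug and with vehicle, so drug and sample code range coincide here too. With IMN 0 of 10 genes were called against 0.536% of 26673 genes, and for FLX 0 of 10 against 1.71% of 26657, with 0 at an unadjusted *p* under 0.05 in both, where 9.24% and 16.8% of all genes passed. The interaction of *Ttr* was 1.65 ± 3.10 for IMN and 1.44 ± 2.87 for FLX (log2, SE, limma adjusted *p* = 0.924 and 0.851). Ordered by mean log2 level, *Ttr* was highest in *Brd1*+/- FLX mice (6.70), followed by *Brd1*+/- vehicle (6.51), WT vehicle (4.85), *Brd1*+/- IMN (4.82), WT FLX (3.60) and WT IMN mice (1.52). The SD of each group, between 4.02 and 5.56, was larger than each step between neighbours in that order. The highest and lowest of these means lay further apart than the SD of every group but *Brd1*+/- IMN (5.56).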

How the data were processed

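Amygdala punches of 48 female mice were profiled. Per the study's methods, the authors sequenced TruSeq libraries as 50-base single-end reads on a HiSeq2000 instrument, aligned them to GRCm38 (Ensembl 90) with HISAT2 2.1.0, quantified genes with StringTie 1.3.4 and compared groups with edgeR on counts. The values the authors deposited are TPM, one column per library, so depth is unknown and strand use is not stated. The series' design text names other regions and another sequencer, and the sample labels, which say amygdala, were followed.

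Groups and replicate numbers came from the labels, and coordinates (1-based) from GENCODE M21 on GRCm38. Since TPM is not a count, log2(TPM + 0.1) values were fitted with limma 3.58.1 (R 4.3.3, eBayes with trend, two-sided) in fits that held only the compared groups, for genes that reached 0.1 TPM in 8 or more samples. Benjamini-Hochberg adjusted p-values under 0.05 over all genes were called. A fold change on this scale understates the change of low genes. Correlations used 100000 permutations, adjusted over 9 gene pairs, 13 lists or 16 relations. The 16 were pairs of a gene and a list, and the pair of *Clic6* and *Sostdc1*. For comparisons of groups, p-values measure the spread between libraries of a group. For correlations the libraries were permuted regardless of group, so differences between groups enter unless each group was centred on its mean. The code was tested on simulated data.

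The members and lists were chosen with earlier results of these data known. Named genes were the 10 members, the 10 genes with the highest *r* to their mean among genes that reached 1 TPM in 4 or more libraries, their nearest protein-coding neighbours, and counts over 25 further choroid plexus genes. By rule, promoters were shown where they hold TAATCC (*Otx2*), and those of *Kcnj13* and *Slc4a5* were added for TATAAA. Later additions, made with the data seen, were the genotype fit over the 3 treatments, the permutation tests of *Ttr*, the TATAAA search and *Clic6*, *Kl* and *Sostdc1* against region lists. Alternatives were other pseudocounts (0.01, 1), another filter (none, 1 TPM), median-ratio scaling, no trend, 1 fit of 48 libraries and the replicate block. Others were a covariate for lower or higher sample codes, split within vehicle and within drug libraries, and leaving out each library. Promoter sequence of *Ttr* is not reported here.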

Additional observations from a re-analysis of the deposited data

Results flagged for a closer look

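Of 60 tests of a gene within a group of 8, 22 had a library that stood apart by a rule on the log2 scale. Its gap to the nearest other library, as a share of the range of the group, was above a limit. The limit was the 95% critical value of Dixon's test for 8 samples. That value assumes normally distributed levels, so no chance rate can be attached to it here. *Folr1* in WT IMN and WT FLX mice had 7 of 8 libraries listed at 0, so its gap filled the whole range. The 22 flags fell in 4 libraries, and since the 10 genes vary together they are not 22 separate events.

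WT vehicle replicate 1 held 8 of them, each time as the highest of the group: *Ttr* (28369 TPM, next library 51.5 TPM), *Folr1* (370 TPM), *Kl* (281 TPM), *Kcnj13* (213 TPM), *Kcne2* (150 TPM), *Otx2* (123.7 TPM), *Aqp1* (84.3 TPM) and *Slc4a5* (71.5 TPM). In WT FLX replicate 2 there were 6, *Ttr* (8383 TPM, next library 17.3 TPM), *Folr1* (106 TPM), *Kl* (87.6 TPM), *Kcne2* (48.1 TPM), *Aqp1* (24.7 TPM) and *Slc4a5* (23.4 TPM). In WT IMN replicate 1 there were also 6, *Ttr* (1193 TPM, next library 7.24 TPM), *Folr1* (13.96 TPM), *Kcnj13* (9.65 TPM), *Kcne2* (4.20 TPM), *Aqp1* (3.75 TPM) and *Slc4a5* (1.34 TPM). *Brd1*+/- FLX replicate 8 stood apart in *Kl* (306 TPM) and *Clic6* (320 TPM). By this rule on the log2 scale each WT group thus held 1 library that stood apart in *Ttr*, and no *Brd1*+/- group did. In TPM, *Brd1*+/- FLX replicate 8 had 27594 TPM with the next of its group at 1680 TPM. *Brd1*+/- vehicle replicate 3 had 10275 TPM with the next at 996 TPM.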

How the results depend on the processing

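No gene of the 10 was called in any of the 10 comparisons under any alternative (323 fits, lowest adjusted *p* of a member 0.200 by limma), with the replicate number as a block included, where 0 were called in each comparison. Replicate numbers did not pair the libraries: over 56 same-numbered pairs the correlation of deviations from the group means had a median of 0.0035 (−0.26 to 0.31), 13 were above 0.1, and in 6 of 56 the library correlated best with its own number. Leaving out each library gave 0 calls throughout (0 to 0 in each comparison), while the median difference over the 10 genes ran from 0.34 to 2.39 for *Brd1*+/- vehicle against WT vehicle, 0.97 to 1.82 with IMN, −0.10 to 1.80 with FLX, −1.08 to 0.23 for IMN and −0.70 to 0.96 for FLX in WT mice, −0.69 to 0.62 for IMN and −0.66 to 1.01 for FLX in *Brd1*+/- mice, −0.28 to 1.40 and −0.75 to 0.92 for the interactions with IMN and FLX, and 0.64 to 1.31 over the 3 treatments. With a pseudocount of 0.01 or 1 the median for *Brd1*+/- against WT vehicle mice was 1.54 or 0.50, and that for FLX in WT mice, 0.04, was −0.11 with a pseudocount of 1. Another alternative held a term for lower or higher sample codes, split within the vehicle and within the drug libraries. With it the median for FLX in *Brd1*+/- mice, 0.21, was −0.08, and that for *Brd1*+/- against WT FLX mice, 0.85, was 0.51. The term cannot adjust for the separate code ranges of vehicle and drug libraries. Among the drug libraries the highest sample codes were all WT, and the next lower run of codes was all *Brd1*+/-. The term puts the former and most of the latter on the same side, so it cannot separate genotype from code there. All 9 correlations with *Ttr* passed for *r* under every alternative, and for rho under every one but the vehicle libraries alone, where 7 did. Of 13 lists 5 passed with *Ttr* for *r*, 4 without the 2 farthest libraries (blood 0.29) and 3 within the drug libraries (blood 0.27, meningeal 0.36), while for rho 3 passed over the 48 libraries, 3 without those 2 (meningeal 0.24) and 0 within the vehicle libraries. Of 16 relations of *Clic6*, *Kl* and *Sostdc1* 6 passed for *r* and 8 for rho, with 3 and 2 within the 16 vehicle libraries, where fewer samples were used. At an unadjusted *p* under 0.05, leaving out each library gave 0 to 3, 1 to 5 and 0 to 1 members in the genotype comparisons with vehicle, IMN and FLX, 0 to 2 for IMN in WT mice, 0 to 6 over the 3 treatments and 0 in the other 5 comparisons. TPM hides depth, so how firmly a gene listed at 0 is absent is unknown.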

Other observations

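*Clic6*, *Kl* and *Sostdc1*, which kept a level in most punches with hardly any *Ttr*, were set beside lists of region and cell type genes. This choice was made after their values were seen. *Sostdc1* was below 1 TPM in 9 of the 48 libraries. Over 48 libraries, on the log2(TPM + 0.1) scale, with 16 relations in the family, *Kl* followed the ependymal list (*r* = 0.88, rho 0.77), as did *Sostdc1* (*r* = 0.81, rho 0.72), each with permutation *p* = 1e-05 and an adjusted *p* of 8e-05 for both measures. Without the 2 libraries farthest from the median of *Ttr* these were *r* = 0.81 and 0.74. Both settings hold punches rich in *Ttr*, where the ependymal list rises too, and the punches with hardly any *Ttr* were not tested alone. For *Clic6* *r* was 0.57 (adjusted permutation *p* = 0.00028) but rho was 0.20 (adjusted *p* = 0.209), and *r* without those 2 libraries was 0.34.

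*Sostdc1* also rose with the amygdala list (*r* = 0.54, rho 0.41, adjusted permutation *p* = 0.000267 and 0.0175) and fell with the striatal list (*r* = −0.51, rho −0.40, adjusted *p* = 0.000352 and 0.0225). Without the same 2 libraries they were *r* = 0.70 and −0.68, within the drug libraries 0.71 and −0.62, and within the 16 vehicle libraries 0.30 and −0.33, where neither passed. *Clic6* had the opposite sign with the striatal list, at *r* = 0.30 (rho 0.34), which passed for rho alone (adjusted permutation *p* = 0.0843 and 0.0393). Other relations that passed for rho alone were *Clic6* with the hypothalamic list (*r* = −0.22, rho −0.35, adjusted permutation *p* = 0.204 and 0.0357), *Kl* with the amygdala list (*r* = 0.25, rho 0.37, adjusted *p* = 0.153 and 0.028) and *Sostdc1* with the hypothalamic list (*r* = 0.29, rho 0.37, adjusted *p* = 0.0872 and 0.028). Of the 16 relations, which include the pair of *Clic6* and *Sostdc1*, 6 passed for *r* and 8 for rho. The test of the difference between *Clic6* and *Sostdc1* was not run. These 2 genes had the weakest relation among the 45 pairs of members (*r* = 0.43, rho 0.23, adjusted permutation *p* = 0.00653 and 0.198), and it did not hold without the 2 libraries (*r* = 0.18).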
